A study of Drosophila melanogaster with 33 samples.

Results

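The odorant receptor genes of the fly antenna and maxillary palp were followed across adult age in heads of both sexes. Genes were taken whose FlyBase symbol is Orco or begins with Or and a digit. This rule matched 61 symbols, of which 56 had a linear RNA value among 16240 genes. CantonS (CS) wild-type flies were kept at 25°C in 12:12 light and dark, flash frozen at the desired age, and total RNA of pooled whole heads was depleted of ribosomal RNA and sequenced. The 33 libraries came from males of days 0, 10, 20, 30, 40 and 50 (3, 2, 2, 3, 3 and 2 libraries) and from females of the same ages (3 libraries each). Day 0 stands for flies taken 2 to 3 days after eclosion. The flies had 3 days to mate before the sexes were kept apart for aging. No group carried a transgene or a treatment.

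In *Drosophila* an olfactory sensory neuron usually makes a single tuning receptor, which sets the odours it answers to, together with Orco, the co-receptor that carries tuning receptors into the sensory cilium and forms the ion channel with them. These neurons sit in hair-like sensilla. Basiconic sensilla of the antenna answer mainly to food odours, trichoid and intermediate sensilla to pheromones and other odours, and the palp has basiconic sensilla with receptors of their own. Some members of the family are known mainly from the larval dorsal organ.

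Values are normalized reads, that is, reads per gene divided by the size factor of the library. The 32 libraries whose reads entered the count tests held 28848182 to 94953552 reads on linear genes. The labels do not say whether the libraries of a group came from separate cultures, so the p-values measure the spread between these libraries. Markers of other head tissues moved with age: all 5 muscle genes were lower at day 50 than at day 0 in males and in females, with medians of -2.55 and -2.71 on the log2 scale. Of 5 neuronal markers, 3 were lower in each sex. Of 4 fat body genes, 2 were higher and 2 lower in males, and 3 were higher and 1 lower in females. Of all genes, 19.9% were higher and 22.5% lower in males, and 21% and 24.9% in females. At day 10 the muscle genes were already lower in both sexes, with medians of -2.76 in males and -2.37 in females. Of 4 glial genes, 3 were lower in males and 2 in females. At that age 3 fat body genes were higher and 1 lower in males, and 2 were higher and 2 lower in females. Of all genes, 15.8% were higher and 16.5% lower in males, and 15.5% and 18.3% in females. The part of these marker changes in the receptor values was not tested. In whole heads, fewer cells of a type and less RNA per cell cannot be told apart.

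Receptor RNA was scarce, and every receptor with a value had a read in at least 1 library. Between 45 and 55 of the 56 were detected in a library (median 50), and 31 had a read in all 33. Mean levels reached 10 normalized reads for 26 receptors, lay between 1 and 10 for 27, and were under 1 for Or23a, Or49a and Or19a. Or19a and Or19b are near-identical copies that share 72.5% of their 50-base stretches, so reads could not be split between them with certainty.

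Receptors that lie inside the span of another gene had the higher levels. Of the 56 receptors, 42 overlapped no other gene and had a median of 5.50 normalized reads, with 16 of them at 10 or more. The other 14 overlapped another gene and had a median of 68.7, with 10 at 10 or more. Of those 14, 10 are called nested below, since they lie inside the span of another gene, and these had a median of 99.5. The other 4, which share exons with another gene, had a median of 1.72, below that of the receptors with no overlap. Or45a (FBgn0033404, dm6 2R, 9345349 to 9348863, plus strand), a receptor known from the larva, averaged 2871 normalized reads and made up 54.0 to 66.4% of all receptor reads in a library. It lies inside the span of CG13739, which is on the opposite strand and averaged 5824. Overlapping receptors together gave 77.9 to 89.0% of the receptor reads.

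**Figure D1:**
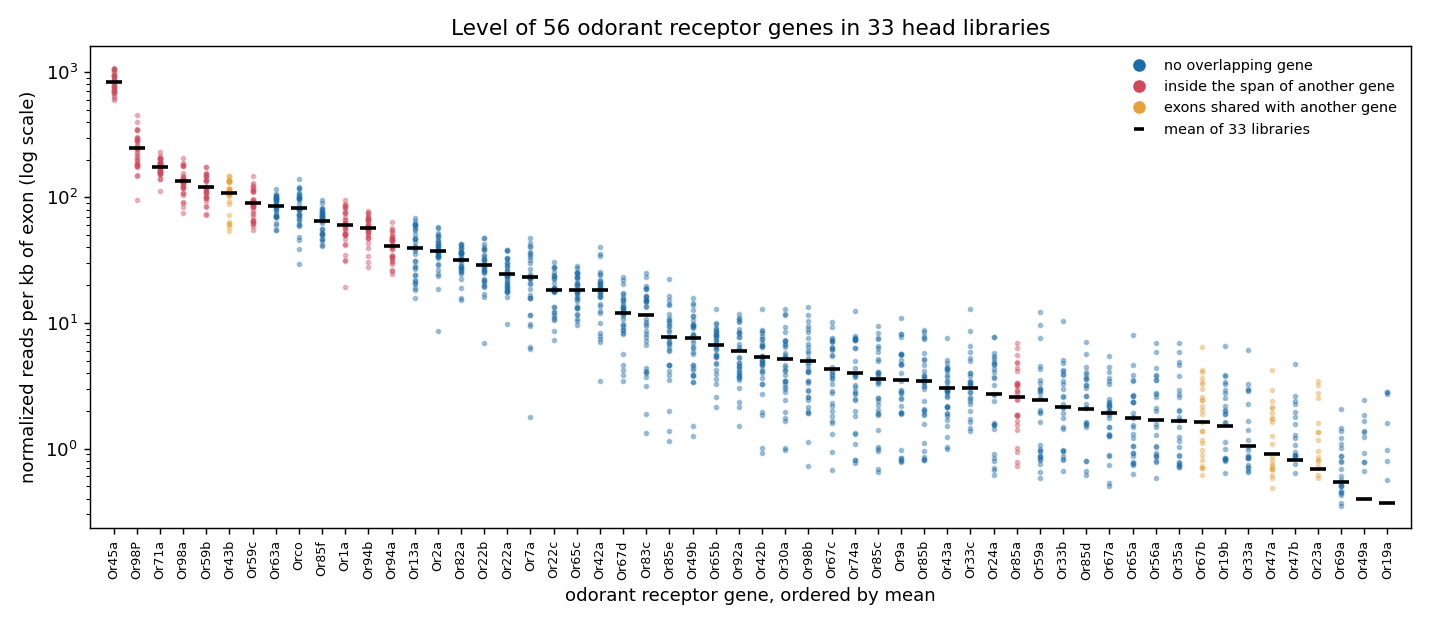
Normalized reads per kb of exon (log axis) of 56 receptors, ordered by mean. Points are libraries, with values of 0 left out because a log axis cannot hold them, bars are means of 33 libraries, and colours give the overlap with other genes. The 7 highest means, headed by Or45a at 829, belong to receptors that overlap another gene.

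Per kb of exon, Or45a was followed by the pseudogene Or98P at 246, the palp receptor Or71a at 176, Or98a at 135, Or59b at 121, Or43b at 109, Or59c at 90.6, Or63a at 85.1, Orco at 82.8 and Or85f at 65.4. Only Or63a, Orco and Or85f among these 10 overlap no other gene. The counting setting for strand is not given in the sources used here. Among coding genes with every exon base also in an exon on the opposite strand, 6 of 72 had a row (8.33%), against 8898 of 9194 (96.8%) of those with no exon overlap. The receptors without a row were Or10a, Or45b, Or46a and Or83a, whose exon bases all lie in exons of another gene, and Or88a, at 85.9%. They are not analysed here.

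A pair of short motifs described upstream of palp receptor genes were searched for in the 250 bases before each gene start, on both strands: Oligo-1, with the letters CTTATAA, and Dyad-1, with the letters CTA and TAA and 9 bases of any kind between them. Oligo-1 was found before 4 of 7 palp receptors (Or59c, Or42a, Or85e and Or46a), which is 57.1%, against 721 of 13968 coding genes (5.16%). Dyad-1 was found before 3 of 7 palp receptors, 4 of 13 trichoid and intermediate receptors and 2230 of 13968 coding genes. Among the 60 coding receptors, 7 held Oligo-1 and 14 held Dyad-1. Because the motifs were described upstream of palp receptor genes, their share there is a description and no test. Of 3 receptors shown, the palp gene Or85e holds Oligo-1, the palp gene Or71a Dyad-1 and the antennal gene Or82a Oligo-1. Their 160 bases before the gene start are printed with motif letters in capitals. They were read from Release 6 of the RefSeq genome, 5′ to 3′ on the strand of the gene, at 3R:8635879-8636038 (minus), 3L:15078448-15078607 (minus) and 3R:4256812-4256971 (plus).
Or85e: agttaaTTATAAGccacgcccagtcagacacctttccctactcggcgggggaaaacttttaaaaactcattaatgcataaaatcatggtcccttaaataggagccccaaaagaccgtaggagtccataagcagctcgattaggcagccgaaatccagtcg
Or71a: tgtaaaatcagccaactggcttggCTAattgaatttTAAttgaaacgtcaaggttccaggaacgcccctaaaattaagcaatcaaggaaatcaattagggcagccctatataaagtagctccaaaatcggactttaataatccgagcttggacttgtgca
Or82a: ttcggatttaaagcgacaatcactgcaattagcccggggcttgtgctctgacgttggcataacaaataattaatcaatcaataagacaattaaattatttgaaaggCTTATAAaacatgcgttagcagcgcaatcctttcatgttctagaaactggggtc
In Or85e the motif stands on the opposite strand and reads as its reverse complement. These matches are descriptions of letters, and the factors that bind them were not measured.

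Orco (FBgn0037324, 3R, 5407183 to 5412406), the shared co-receptor, rose early in adult life in both sexes. In males it had 190 and 210 normalized reads at day 10, against 120, 117 and 93.2 at day 0. In females it had 227, 192 and 231 at day 10, against 88.8, 57.4 and 75.7 at day 0. Day 10 and day 0 did not overlap in either sex. The log2 fold change was 0.86 ± 0.21 in males (SE, limma adjusted p = 0.00107) and 1.56 ± 0.19 in females (limma adjusted p = 5.9e-08). Of 6 genes of ciliated sensory neurons in general, 4 were also higher at day 10 in males, against 15.8% of all genes. In females 3 were higher, against 15.5%. The medians of the 6 genes were 0.54 and 0.47. Their summed level was 2383 to 2687 normalized reads at day 10 and 2110 to 2192 at day 0 in males, and 2305 to 2447 at day 10 and 1906 to 2021 at day 0 in females. The part of these markers in the Orco values was not tested.

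At day 50 Orco had 114.8 and 147 normalized reads in males and 141, 132.5 and 205.5 in females. Against day 0 this was a change of 0.25 ± 0.21 in males, not called, and of 1.09 ± 0.19 in females, called (limma adjusted p = 1.2e-05). The sex difference of this change was -0.85 ± 0.29 and missed the threshold (limma adjusted p = 0.0505). Against day 10, Orco was lower at day 50 in males by a log2 fold change of -0.62. That call was lost without replicate 1 or replicate 3 of male day 10, without replicate 1 of male day 50, with one fit per sex and on the scale of total linear reads.

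A receptor was called where its adjusted p was under 0.05 and its log2 fold change beyond 0.5 on the scale of log2(normalized reads + 1), with 26 receptors and 12685 genes tested. From day 0 to day 10, 4 receptors rose in males, against 15.8% of all genes, and none fell, against 16.5%. Without an adjustment, 6 of the 26 passed p under 0.05 in this male comparison, where 7692 of 12685 genes passed. edgeR called 5 receptors, all of them higher at day 10. In females 8 rose, against 15.5% of all genes, and 1 fell, against 18.3%. At day 50 against day 0, 8 rose in males (19.9% of all genes) and 2 fell (22.5%). In females 9 rose (21%) and 8 fell (24.9%). The share of receptors called was 38.5% in males and 65.4% in females, where 42.4% and 46% of all genes were called. Of these, 7 receptors were called in both sexes in the same direction, which is 26.9% of those tested, against 35.6% of all genes. They were 70% of the male calls and 41.2% of the female calls, against 83.9% and 77.3% over all genes.

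Of the 26 tested receptors, 3 had a mean under 10 over the day 0 libraries (Or85e, Or83c and Or49b) and passed the filter through the later ages. All 3 are counted above among the receptors called higher than at day 0, so their calls are given as a description. Taken within a sex, day 0 means were also under 10 for Or7a (8.19) and Or42a (8.96) in females and for Or67d (9.87) in males. Their calls against day 0 in that sex are given as a description too.

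At day 50 the male list rests partly on single libraries. Leaving out replicate 1 of male day 50 left 4 calls in place of 10. The male day 10 list fell to 2 calls without replicate 3 of that group.

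Of the receptors with no overlapping gene, 6 of 16 rose and none fell in males at day 50, against 8 and 3 in females. These risers include Or85e and Or83c in both sexes and Or49b in males, which passed the filter through the later ages. Among the female risers, Or7a and Or42a had day 0 means under 10 in that sex. Of the overlapping ones, 2 of 10 rose and 2 fell in males, against 1 and 5 in females. The medians were 0.25 and -0.40 in males and 0.74 and -0.57 in females, against -0.03 and -0.04 for all genes tested. Summed over the 42 receptors that overlap no gene, normalized reads were 902 ± 9.06 at day 50 and 745 ± 26.4 at day 0 in males (SD, n = 2 and 3), and 814 ± 43.7 at day 50 and 589 ± 37.0 at day 0 in females (n = 3 each). Summed over all 56 receptors, they were 4656 ± 23.8 at day 50 and 5529 ± 88.9 at day 0 in males, and 3956 ± 122 at day 50 and 5004 ± 166 at day 0 in females. For all 56 receptors the ratio of day 50 over day 0 turned with the choice of scale and members. It was 0.842 in males and 0.791 in females, but 1.01 and 0.861 on the scale of total linear reads, and 1.04 and 1.03 without Or45a.

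**Figure D2:**
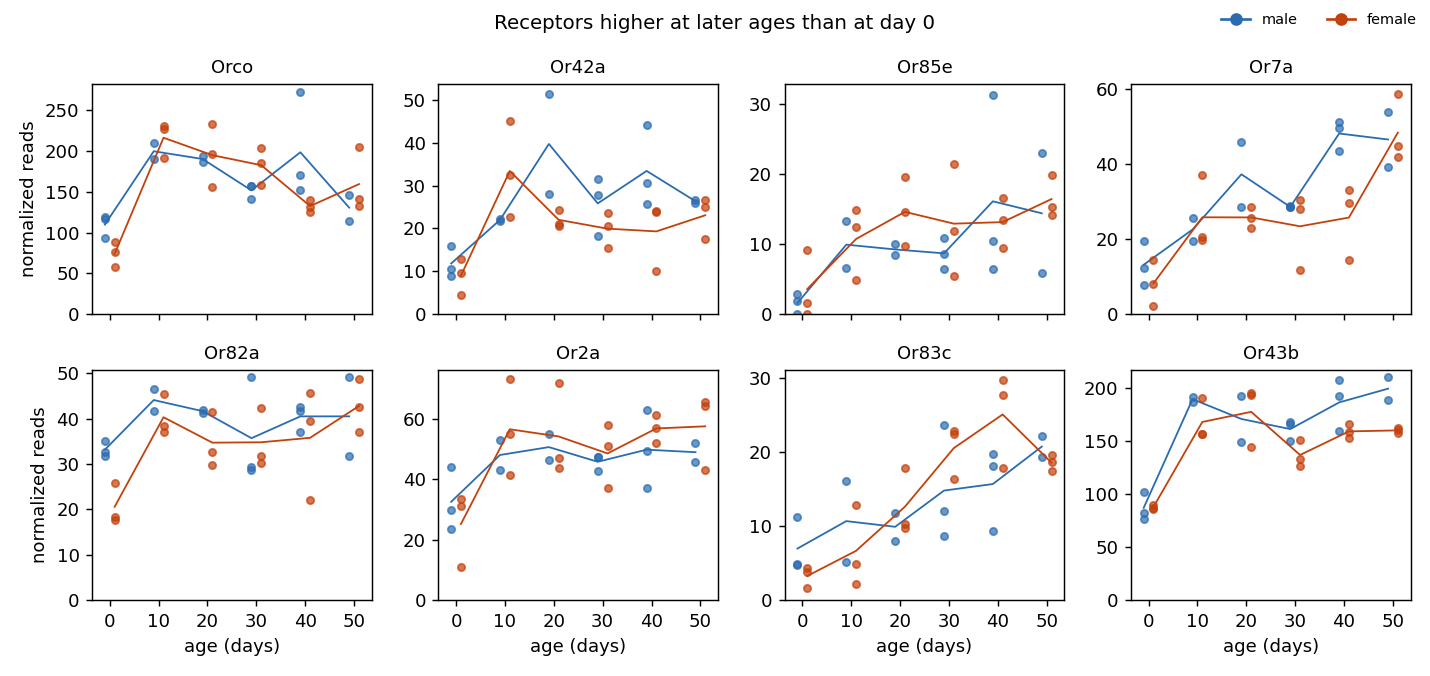
Normalized reads of 8 receptors against age in days. Points are libraries, with males drawn left of females, and lines join group means. Orco, Or42a and Or7a had their lowest group means at day 0 in both sexes, and Or43b did not overlap between day 0 and later ages.

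Palp receptors that overlap no gene were near the floor at day 0. Or42a (2R, 5791441 to 5792967), the receptor of the pb1A palp neuron, had 26.0 and 26.6 normalized reads in males at day 50, against 9.0, 15.9 and 10.6 at day 0. In females it had 17.5, 26.7 and 25.0 at day 50, against 9.6, 4.4 and 12.9 at day 0. The groups did not overlap, and the log2 fold changes were 1.13 ± 0.40 in males and 1.36 ± 0.36 in females (limma adjusted p = 0.0146 and 0.00141). Without replicate 1 of male day 0, or either replicate of male day 50, the male call was lost.

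Or85e (3R, 8634320 to 8635878) is expressed in the palp neuron pb2A together with Or33c. It had 5.8 and 22.9 normalized reads in males at day 50, against 0.0, 2.8 and 1.9 at day 0. Female heads had 15.3, 19.8 and 14.1 at day 50, against 1.6, 0.0 and 9.1 at day 0. Its mean over all libraries was 10.9, just above the filter of 10. The log2 fold changes were 2.51 ± 0.76 in males and 2.54 ± 0.68 in females, past the threshold in both, and in males the call was lost without replicate 2 of day 50. At day 10 they were 2.22 in males and 1.86 in females, also past the threshold. The male call was lost without replicate 1 of day 0 or replicate 3 of day 10, and the female call under both edgeR fits, under DESeq2 and without replicate 1 or 2 of day 0 or replicate 1 or 3 of day 10. Its partner Or33c averaged 3.48 normalized reads and was not in the tested set. It had 5.8 and 3.7 in males at day 50, against 0.0, 1.9 and 0.0 at day 0, and 3.3, 4.7 and 7.6 in females at day 50, against 0.0 in all 3 libraries of day 0.

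With the filter lowered to a mean of 1, 53 receptors were tested. Or33c was then called higher at day 50 in both sexes and at day 10 in females, and Or85d, a receptor of the palp neuron pb3B, at day 50 in females. In that fit 11 receptors were higher (18.6% of all genes) and 3 lower (19.6%) at day 50 in males, and 12 higher (20.5%) and 7 lower (21.8%) in females. At day 10, 5 were called in males, each of them higher (15.5% of all genes), and in females 10 were higher (13.9%) and 2 lower (16.4%). Receptors with few reads reach a call in these fits through the group where they are high.

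The nested palp receptors with a value were Or59c and Or71a. Or59c, the receptor of palp neuron pb3A, had 117 and 134 normalized reads in males at day 50, against 161, 168 and 154 at day 0. Female heads had 90.6, 88.4 and 91.3 at day 50, against 181, 159 and 134 at day 0. It fell in females (-0.79 ± 0.18, limma adjusted p = 0.000369). Or71a, of the palp neuron pb1B, was not called in any comparison.

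Antennal basiconic receptors moved in both directions. Or7a (X, 8164266 to 8165708), a receptor for green leaf odours, had 54.0 and 39.2 normalized reads in males at day 50, against 12.2, 19.6 and 7.7 at day 0. Female heads had 44.8, 41.9 and 58.7 at day 50, against 8.0, 2.2 and 14.4 at day 0. The log2 fold changes were 1.82 ± 0.48 in males and 2.68 ± 0.43 in females (limma adjusted p = 0.00146 and 3.0e-06), and the groups did not overlap.

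Or82a, which answers to geranyl acetate, rose in females to 42.6, 48.8 and 37.0 at day 50, against 18.4, 17.7 and 25.7 at day 0 (1.03 ± 0.24). In males it had 49.2 and 31.8 at day 50, against 35.05, 31.8 and 32.7 at day 0, and was not called. The sex difference of its change, -0.78 ± 0.36, missed the threshold (limma adjusted p = 0.183). Or49b and Or85f rose in males at day 50, by 1.36 and 0.57, but Or49b lost its call without replicate 1 or 3 of day 0 or either library of day 50, and Or85f without replicate 1 of day 0 or either library of day 50.

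Or43b (2R, 7920835 to 7922604) had 210 and 188 normalized reads in males at day 50, against 102, 82.2 and 76.8 at day 0. Female values were 157, 160 and 162, against 87.2, 86.0 and 90.03. It rose by 1.19 ± 0.14 in males and 0.86 ± 0.13 in females and was called at day 10 as well. Cul1, whose exons share 40.7% of the exon bases of Or43b on the opposite strand, had a log2 fold change of -0.85 in males and -0.84 in females. Or43b and Cul1 thus moved in opposite directions.

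Or98a, Or59b and Or22b went the other way. Or98a fell by 0.62 on the log2 scale in males, a call lost without replicate 1 of day 50, and by 0.70 in females. Or59b, which answers to methyl acetate, fell in females by 0.54 and had -0.49 in males, just short of the fold threshold. Or22b fell in females by 0.68, a call that was lost under 7 of 17 alternatives, among them leaving out replicate 2 or 3 of either group. On the scale of total linear reads, which lifts the median of all genes by 0.25 in males and 0.12 in females, the calls of Or98a in males and of Or59b, Or22b, Or45a and Or65c in females were lost.

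Of 5 trichoid and intermediate receptors tested, 2 rose and 2 fell in females at day 50, and 1 was called in males, higher. Of all genes, 21% rose and 24.9% fell in females, and 19.9% rose and 22.5% fell in males. Or83c, which answers to farnesol, had 22.2 and 19.2 normalized reads in males at day 50, against 4.9, 11.2 and 4.8 at day 0. In females it had 19.6, 18.6 and 17.4 at day 50, against 1.6, 4.4 and 3.8 at day 0. It rose by 1.54 ± 0.53 in males and by 2.26 ± 0.47 in females, and in females day 50 was also called above day 10 (1.60 ± 0.47, lost without replicate 3 of day 10). The male call was lost without replicate 1 of day 50. Or2a rose in females at day 10 (1.24 ± 0.31) and at day 50 (1.28 ± 0.31), with 0.59 and 0.62 in males, not called. Or67d, the receptor for the male pheromone cis-vaccenyl acetate, was called only in males at day 10 (1.27 ± 0.52), and the call was lost with one fit per sex, without replicate 1 of day 0 and without either library of day 10.

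Or65c fell in females at day 50 by 0.72 against day 0 and by 0.74 against day 10. Each call was lost when replicate 1 or 2 of either of its groups was left out, and that against day 0 also under DESeq2.

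Or13a (X, 15974425 to 15976706), an antennal receptor of intermediate sensilla that answers to 1-octen-3-ol, was the only receptor of 26 called between the sexes. Averaged over the 6 ages its log2 level was higher in males by 0.97 ± 0.11 (limma adjusted p = 1.7e-08). Of all genes, 10.5% were called between the sexes, 4.21% higher and 6.25% lower in males. At day 50 Or13a had 75.2 and 64.4 normalized reads in males and 22.9, 36.0 and 23.9 in females. At day 0 it had 69.3, 81.3 and 77.8 in males and 52.0, 48.5 and 39.3 in females. The sexes did not overlap at day 0 or day 50, and the call held under all 43 alternatives. It fell with age in females (-0.75 ± 0.26 at day 50 against day 0), a call lost without replicate 1 of female day 50, and had -0.12 ± 0.29 in males. The sex difference of its change, 0.63 ± 0.38, missed the threshold (limma adjusted p = 0.34).

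With the lower filter 2 receptors of 53 were called higher in males (Or13a and Or47a, against 7% of all genes) and 2 lower (Or24a and Or85b, against 6.03%). Or24a, Or47a, Or85b, Or33c and Or85d lie outside the rule for named receptors and were named after their values were seen. Or24a is a receptor known from the larva. Its normalized reads ranged from 0.0 to 3.9 in males and from 0.0 to 9.3 in females.

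**Figure D3:**
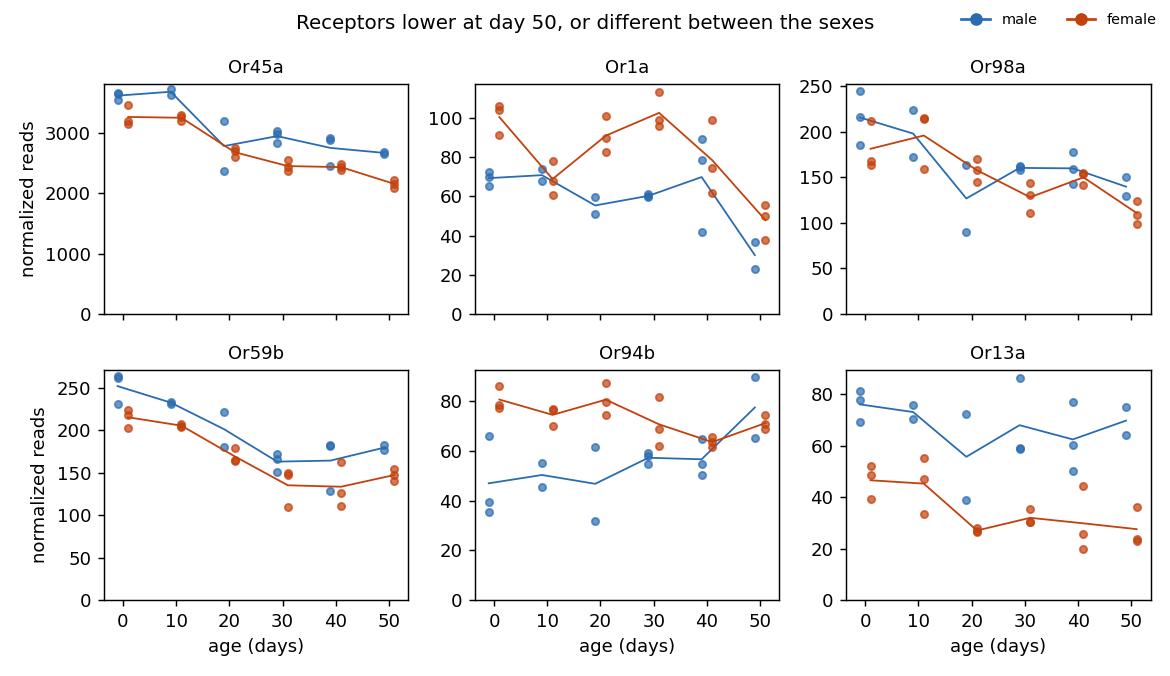
Normalized reads of 6 receptors against age in days. Points are libraries, with males drawn left of females, and lines join group means. Day 50 and day 0 libraries of Or45a, Or98a and Or59b did not overlap in either sex, and the mean of Or13a was higher in males at each age.

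Among receptors known from the larva, Or45a had 2685 and 2644 normalized reads in males at day 50, against 3655, 3536 and 3639 at day 0. Female values were 2079, 2223 and 2153 at day 50, against 3138, 3448 and 3187 at day 0. The log2 fold change was -0.44 ± 0.08 in males, inside the fold threshold, and -0.60 ± 0.07 in females, called. Or1a had 23.1 and 37.0 normalized reads in males at day 50, against 72.5, 65.4 and 70.1 at day 0, and 55.7, 50.0 and 38.1 in females, against 104, 106 and 91.5. It fell by 1.21 in males and 1.07 in females. The only receptor that fell at day 10 was Or1a, in females (-0.54), a call lost under 7 of 17 alternatives, among them leaving out replicate 1 or 2 of day 0 or replicate 2 or 3 of day 10. Or22c rose in females at day 10 and day 50 (0.95 and 0.70). The call at day 10 was lost without replicate 3 of day 10, and that at day 50 without replicate 2 of day 0 or replicate 1 of day 50, under DESeq2, under edgeR with the lower filter and with one fit per sex. Or63a was called in no comparison.

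Between day 10 and day 50, 1 receptor rose (9.15% of all genes) and 2 fell (10.4%) in males. These 3 male calls were 5 with a pseudocount of 4, 6 without replicate 1 of male day 20, 7 under edgeR and 8 under DESeq2. In that library, also absent from the edgeR and DESeq2 fits, all receptors summed to 4208 normalized reads, against 5300 in replicate 2. In females 1 rose (12%) and 6 fell (11.7%). Or1a fell in both sexes, by 1.25 in males and 0.52 in females. The female call was lost under 8 of 17 alternatives: a pseudocount of 4, no filter, both edgeR fits, and leaving out replicate 1 or 2 of day 10 or replicate 2 or 3 of day 50. Or49b rose in males, and the call was lost without replicate 1 of day 10 or replicate 2 of day 50. Or13a fell in females by 0.69, lost without replicate 2 or 3 of day 10 or replicate 1 or 3 of day 50. The female falls of Or98a (-0.81), Or59c (-0.86) and Or45a (-0.59) stayed called under all 17 alternatives.

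**Figure D4:**
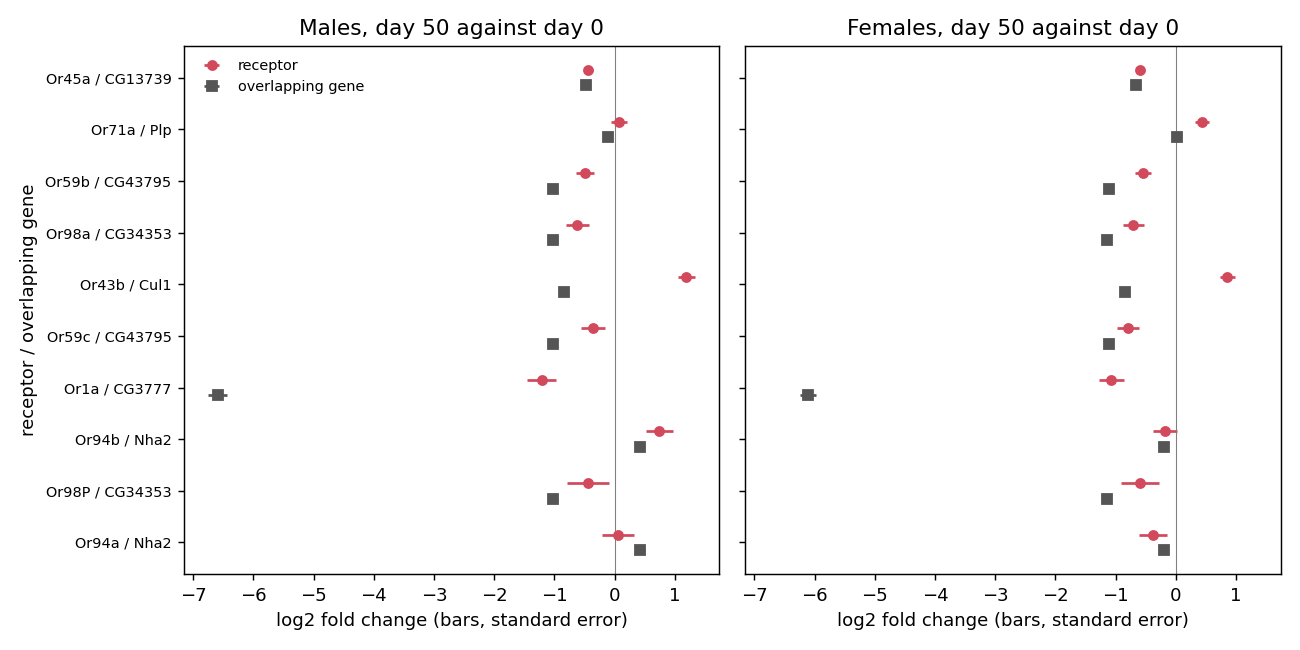
Log2 fold changes of day 50 against day 0 for 10 receptors (circles) and for the gene each overlaps (squares), with males on the left and females on the right, and bars showing the standard error. Or45a and CG13739 lie close together, while Or43b and Cul1 lie on opposite sides of 0.

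Values of nested receptors were set beside those of the surrounding gene. Or45a had -0.44 in males and -0.60 in females, where CG13739 had -0.48 and -0.66. Or98a had -0.62 and -0.70, where CG34353 had -1.02 and -1.14. Or59b had -0.49 and -0.54, and Or59c -0.36 and -0.79, where CG43795 had -1.02 and -1.10. Or1a had -1.21 and -1.07, where CG3777 had -6.60 and -6.11. The mean of Or45a was 49.3% of that of CG13739, and the other 8 tested nested receptors were at 1.02 to 3.65% of the surrounding gene. How much of a nested receptor's value comes from RNA of the surrounding gene was not tested.

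Or94b is known from the larva and nested in Nha2. It was the only receptor whose change from day 0 to day 50 was called different between the sexes. Of all genes, 6% were called, 2.55% higher and 3.45% lower in males. Or94b had 89.7 and 65.1 normalized reads in males at day 50, against 66.0, 35.5 and 39.4 at day 0. Female values were 74.2, 68.6 and 70.7 at day 50, against 78.4, 77.2 and 86.2 at day 0. The sex difference of the change was 0.92 ± 0.30 (limma adjusted p = 0.0419), and Nha2 had 0.61 ± 0.10. The call was lost with the filter at a mean of 1, with no filter, and without any 1 of 9 libraries (each female library of day 0 and day 50, replicates 2 and 3 of male day 0 and replicate 1 of male day 50). The call of its male change alone, 0.74 ± 0.22, was lost without replicate 1 of male day 50.

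Other genes of the olfactory sensilla gave a background to these values. Of 12 tested sensillum partners at day 50, 3 rose and 2 fell in males, where 19.9% of all genes rose and 22.5% fell. In females 3 rose and 1 fell, where 21% of all genes rose and 24.9% fell. Gr63a, a part of the carbon dioxide receptor, rose by 2.35 ± 0.42 in males and 2.69 ± 0.38 in females, and Amt, an ammonium transporter, by 2.19 and 2.15. Est-6, an esterase of the antenna with a mean of 24051 normalized reads over all libraries, rose by 1.36 and 1.88. The odorant-binding protein lush, made by support cells of trichoid sensilla, fell by 3.03 and 2.49. Of 4 genes of support cells (lush, Obp28a, Obp83a and Obp83b), 2 fell in males and 1 in females, and none rose. Their medians were -0.92 and -0.06. Snmp1, a membrane protein of pheromone-sensing neurons, had -0.06 and -0.08 and was not called.

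The ionotropic co-receptor Ir76b rose at day 10 in males (0.61) and females (0.84), and Ir25a in females (0.71). Among 8 transcription factors of olfactory neurons, 3 fell in each sex at day 50 (Eip93F, pdm3 and Fer1). Of all genes, 22.5% fell in males and 24.9% in females. Xbp1 rose in females. Mean levels were 47039 normalized reads for Eip93F, 8616 for pdm3, 488 for Fer1 and 21118 for Xbp1, against 161 for Orco. How much of these values, or of that of Est-6, came from other head cells was not tested. No circular RNA had a receptor as its host gene.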

How the data were processed

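Linear RNA was analysed in 33 head libraries. The authors aligned reads with STAR to dm6, counted genes with featureCounts and deposited signal values, that is, reads divided by DESeq2 size factors, and versions, annotation release and strand setting are not given in the sources used here. Values were whole multiples of the value of 1 read in every library (tolerance 0.01, 100% of values). Reads were recovered from 32 libraries, and edgeR on them called 5526 of 12685 genes in males and 5832 in females at day 50 against day 0. Male day 20 replicate 1, where 1 read was worth 0.999, was left out of the count tests because its step lies so close to 1. No column was left unmapped.

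limma (3.58.1, trend and robust) was fitted in R (4.3.3) to log2(value + 1) with 12 group means, over genes with a mean of at least 10, with Benjamini-Hochberg adjustment in each of 8 comparisons. Calls had an adjusted p below 0.05 and a change of more than 0.5 either way in log2. edgeR (4.0.16) and DESeq2 (1.42.0) were run on recovered reads, and the scripts were tested on simulated data.

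Named receptors were Orco, each receptor called in any comparison and the 10 with the highest mean per kb. Members and lists were chosen with earlier results of these data known. Other alternatives were the pseudocount, the filter, the scaling, a replicate block, a fit per sex and leaving out each library.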

Additional observations from a re-analysis of the deposited data

Results flagged for a closer look

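The change of Or94b from day 0 to day 50 differed between males and females by a test of the difference itself. The log2 fold change was larger in males by 0.92 (SE 0.30, limma adjusted p = 0.0419), and the value is given in the report beside that of Nha2, the gene around it. The call was lost under 11 of 21 alternatives: the filter at a mean of 1, no filter, and leaving out any 1 of 9 libraries.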

How the results depend on the processing

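All 52 calls of single receptors kept their direction under every alternative run. Scaling to total linear reads lost 7 of them, DESeq2 and edgeR 3 each, edgeR with the filter at a mean of 1 lost 4, one fit per sex 3 of 50, the filter at a mean of 1 lost 2, no filter 3, a pseudocount of 4 lost 1, and a pseudocount of 0.5 none. In the male comparison of day 50 with day 0, edgeR with the filter at a mean of 1, chosen after seeing the data, called 16 receptors in place of 10. In males at day 10 against day 0, no filter gave 7 in place of 4. For males at day 50 against day 10, in place of 3, a pseudocount of 4 gave 5, edgeR 7 (and 7 with the lower filter), DESeq2 8, and the fit without male day 20 replicate 1 gave 6. Between the sexes, in place of 1, the filter at a mean of 1 and no filter each gave 4, scaling to total linear reads 3, and edgeR with the lower filter 2. For the sex difference of the change, in place of 1, the filter at a mean of 1 and no filter gave 0, and DESeq2 and the fit without male day 20 replicate 1 gave 2. Leaving out 1 library of the groups compared gave 4 to 11 calls in males and 14 to 19 in females at day 50 against day 0, 2 to 5 in males and 8 to 9 in females at day 10 against day 0, 2 to 3 in males and 5 to 7 in females at day 50 against day 10, 1 to 2 between the sexes and 0 to 1 for the difference of the change. Where this left a group with 1 library, that library was assumed to vary like the other groups.

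The replicate numbers did not pair the libraries: deviations from group means of same-numbered libraries had a median correlation of -0.008 over 166 pairs. With the replicate block the male count of day 50 against day 10 was 5 in place of 3, and no other count moved.

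The ratio of summed receptor reads at day 50 over day 0 was 0.842 in males and 0.791 in females. Scaled to total linear reads it was 1.01 and 0.861, without Or45a 1.04 and 1.03, and for receptors that overlap no gene 1.21 and 1.38, the last 2 chosen after seeing the data. Leaving out 1 library gave 0.836 to 0.850 in males and 0.780 to 0.806 in females. Of 31 receptors with a read in every library, 21 had at least 3 reads in each of the 32 recovered libraries, and 25 a read once libraries were drawn down to the shallowest. Depth thus limits the receptors with means under 10 and also some of the tested ones. In female day 0 replicate 2, the shallowest library, Or7a and Or49b had 1 read, Or42a and Or83c 2 and Or85e 0.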
